A study of Rattus norvegicus with 60 samples.

Results

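The core circadian clock genes are a small set of transcription factors and repressors that keep daily time inside nearly every cell. Arntl (also called Bmal1) and Clock form the activating pair, which binds E-boxes in promoters. Per1, Per2, Per3 and Cry1 belong to the families whose proteins close the loop by repressing that pair. Nr1d1 (REV-ERBα) represses Arntl through ROR elements and is itself driven by E-boxes, and Nr1d2 (REV-ERBβ) is its close relative. Dbp and Tef are output factors of the PAR bZIP family, which bind D-boxes and carry the rhythm to other genes. Clock RNAs cycle in many peripheral tissues. Glucocorticoid hormone is a known signal that sets the phase of peripheral clocks, and Per1 is a textbook target of the glucocorticoid receptor. Methylprednisolone (MP) is a synthetic glucocorticoid.

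The 10 genes were taken by symbol from the probe annotation, and all probe sets of a gene were to be averaged. Of these, 9 were measured among 14324 genes with a symbol of their own, each by 1 probe set, and Nr1d2 was not analysed here. Arntl was listed under the symbol Bmal1.

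RNA of a 5 mm segment of spinal cord from 60 female Long Evans rats, 8 to 9 weeks old and kept in a 12 h light/dark cycle, was measured on 60 arrays. Surgery was done under Zoletil 50 and Rompun. The injured rats (SCI) had a weight-drop contusion after a laminectomy at the lower thoracic cord, and the sham rats had no contusion. Rats received MP at 30 mg/kg in 70% ethanol (SCI-MP, S-MP) or 70% ethanol alone (SCI-EtOH, S-EtOH), and the ethanol was thus shared by all groups. What the sham operation consisted of is not given in the labels or methods. Tissue of 2 rats per group was taken at each of 7 times after the medication, every 2 h from 2 to 8 h and then at 12, 24 and 48 h, with a 0 h point in the ethanol groups alone. The methods state that the 0 h rats were killed immediately, but not whether the ethanol had been given by then. S-EtOH and SCI-EtOH held 16 rats each, and S-MP and SCI-MP 14 each.

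All values are relative log2 values, centred gene by gene by the authors, so that a value can be compared between rats but not between genes. A difference of 1 on this scale is a 2-fold change. The sources used here do not give the time of day of the medication, so hours count from it, and no group was labelled as without medication. Time of day and the hours since the ethanol and the sham operation therefore cannot be told apart. The arrays agreed unevenly: duplicates correlated over all genes with Pearson's r from 0.161 (the SCI-EtOH pair of 6 h) to 0.903, with a median of 0.656. Because bulk tissue was measured, fewer cells of a type and less RNA per cell cannot be told apart.

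The promoter stretches below are shown because the loop runs through them. They hold the letters at which the activators, the REV-ERB repressors and the PAR bZIP factors are known to bind, and capitals mark those letters. They come from RefSeq promoters around a listed start of each gene (build GRCr8), in which 8 of the 9 measured genes had an entry. The motifs searched on both strands were the E-box CACGTG, the E'-box CACGTT, the D-box TTANGTAA, the ROR element AGTAGGTNA, the cAMP response element TGACGTCA and the glucocorticoid response element. The ROR letters were chosen after the Arntl promoter had been seen. Each sequence is written 5′ to 3′ along the gene's strand. By the RefSeq gene spans of the same build, the Arntl, Tef and downstream Nr1d1 stretches lie inside the gene, the upstream Nr1d1 stretch lies before it, and the Per2 stretch crosses its 5′ end.
Arntl, chr1:176766244-176766327, plus strand, 2 ROR elements: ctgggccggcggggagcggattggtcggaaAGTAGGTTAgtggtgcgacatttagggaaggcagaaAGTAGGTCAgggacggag
Nr1d1, chr10:84231951-84232016, minus strand, upstream start, E'-box on the opposite strand: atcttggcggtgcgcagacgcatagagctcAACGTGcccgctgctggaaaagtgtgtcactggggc
Nr1d1, chr10:84229610-84229675, minus strand, downstream start, E-box: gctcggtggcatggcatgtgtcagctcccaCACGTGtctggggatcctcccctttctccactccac
Per2, chr9:99497020-99497215, minus strand, D-box then E'-box: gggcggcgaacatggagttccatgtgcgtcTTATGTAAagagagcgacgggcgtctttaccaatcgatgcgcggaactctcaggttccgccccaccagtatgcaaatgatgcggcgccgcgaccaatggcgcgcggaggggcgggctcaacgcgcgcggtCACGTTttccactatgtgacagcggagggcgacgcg
Tef, chr7:115206599-115206664, plus strand, E-box: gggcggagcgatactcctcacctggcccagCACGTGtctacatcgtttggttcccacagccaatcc

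The ROR element was in 0.604% of 33469 rat promoters, the D-box in 2.24%, the E'-box in 4.83% and the E-box in 6.42%. None of these letters was in the windows of Dbp, Per1, Per3 or Clock. The cAMP response element, found in 1.83% of all promoters, and the glucocorticoid response element, found in 0.439%, were in none of the members' windows. These windows are short and lie around a listed start. Letters farther from it were not searched in any gene, so an absence here covers the window alone. A match is a description of letters and no measure of binding in these rats. Cry1 had no promoter entry.

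In the sham rats given ethanol, 3 clock genes fell together after the medication and returned by 24 h. Nr1d1, Dbp and Per3 were high at 0, 24 and 48 h and low from 4 to 12 h, with no overlap between these spans in any of the 3 genes. The course of the other 6 genes did not pass the test.

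Nr1d1 read 0.97 and 0.69 in the S-EtOH rats of 0 h, 0.81 and 0.35 at 2 h, and 0.05 and -0.04 at 6 h. It stood at -0.12 and -0.25 at 8 h and at -0.26 and -0.07 at 12 h. The rats of 24 h then gave 1.07 and 1.04, and those of 48 h 0.52 and 0.40. The highest values of this REV-ERB repressor were therefore those of 24 h, above both rats of 48 h. Dbp, the PAR bZIP output factor, followed the same course. Its values were 0.97 and 0.71 at 0 h, 0.32 and 0.51 at 2 h, 0.04 and 0.12 at 4 h and -0.13 and -0.09 at 12 h. They were 0.71 and 0.74 at 24 h and 0.43 and 0.68 at 48 h. All 6 Dbp values of 0, 24 and 48 h lay above all 8 values of 4 to 12 h, whose highest was 0.19. Per3, a period family member, fell from 0.60 and 0.58 at 0 h to -0.08 and -0.11 at 4 h. It stood at -0.04 and -0.21 at 12 h, 0.34 and 0.42 at 24 h, and 0.47 and 0.61 at 48 h, so that its range from peak to trough was the narrowest of the 3 genes.

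**Figure D1:**
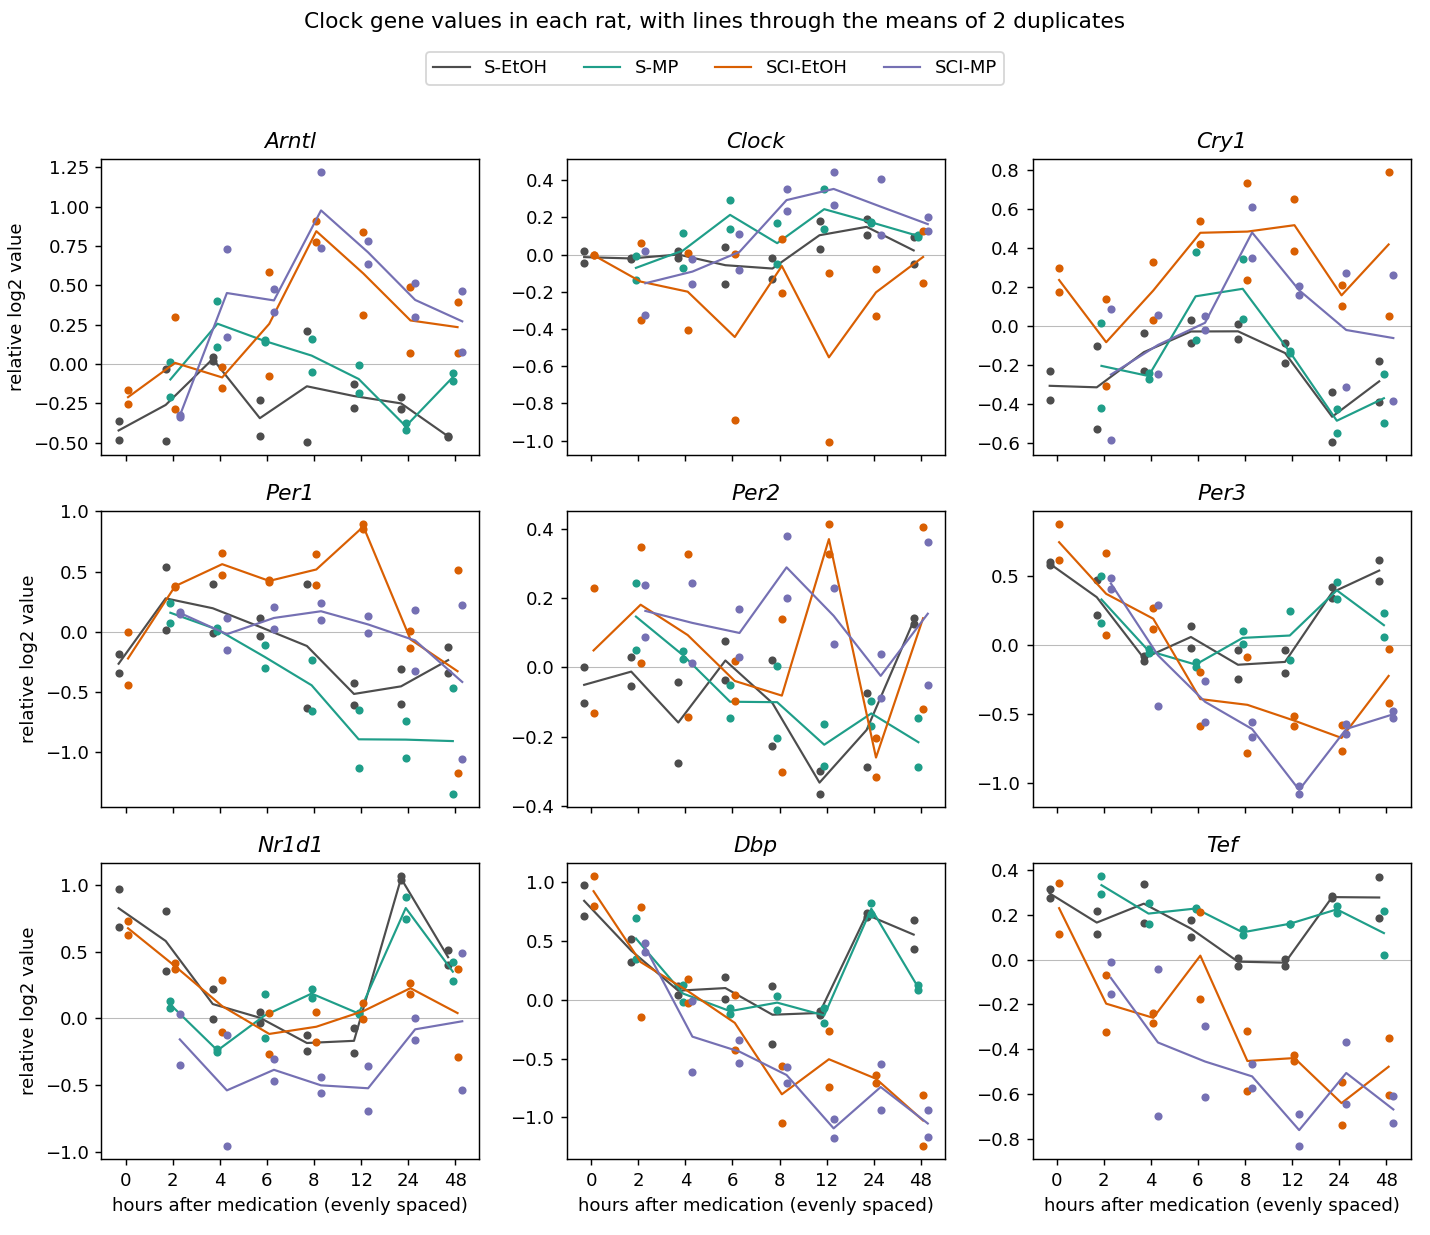
Relative log2 values of the 9 measured clock genes in each rat (points, 2 per group and time) against hours after the medication, drawn evenly spaced, with lines through the means of the duplicates for the sham groups (S-EtOH, S-MP) and the injured groups (SCI-EtOH, SCI-MP). Dbp, Nr1d1 and Per3 dip from 4 to 12 h in S-EtOH and are back by 24 h, while at 48 h Dbp lies below every sham value in all 4 injured rats.

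The contrast of 12 h with the mean of 0, 24 and 48 h, which lie a 24 h period apart, passed for these 3 genes in limma with Benjamini-Hochberg adjustment over all 14324 genes. Nr1d1 was lower at 12 h by a log2 difference of -0.95 ± 0.19 (SE; adjusted p = 0.0034), Dbp by -0.82 ± 0.18 (adjusted p = 0.012) and Per3 by -0.63 ± 0.16 (adjusted p = 0.041). Of the 9 clock genes, 3 were lower and 0 higher, against 0.223% and 0.733% of all genes tested. Leaving out either S-EtOH rat of 12 h, replicate 1 or replicate 2, brought this count to 0, with the Nr1d1 difference at -0.85 and -1.04 and its limma adjusted p at 0.33 and 0.056. With array medians set to 0 the Per3 difference of -0.63 did not pass (limma adjusted p = 0.051). Per2 (-0.30) and Tef (-0.30) were lower without passing, and Arntl (0.17) and Cry1 (0.21) were on the other side of 0. The return itself was measured too, in a contrast chosen after the values were seen. The mean of 24 and 48 h differed from 0 h by -0.07 in Nr1d1, with a 95% interval from -0.47 to 0.33, by -0.20 in Dbp (-0.59 to 0.18) and by -0.13 in Per3 (-0.47 to 0.21). In limma 0 of 9 genes passed, with 0 at an unadjusted p under 0.05, against 0.0628% of all genes.

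A 24 h cosine fitted to the 8 time means of S-EtOH described the same pattern with an amplitude and a peak hour. By the moderated F test of limma, 3 of 9 clock genes passed, against 7.41% of all genes. The amplitude, which is the distance from the mid-line to the peak on the log2 scale, was 0.58 ± 0.09 (SE) for Nr1d1, with an adjusted p of 4.9e-05. It was 0.49 ± 0.09 for Dbp (adjusted p = 4.0e-04 in limma) and 0.40 ± 0.08 for Per3 (adjusted p = 0.0016 in limma). From trough to peak these are fitted changes of 2.25-fold, 1.98-fold and 1.73-fold. The fitted peaks fell at 21.5 ± 0.88 h, 21.3 ± 0.99 h and 21.1 ± 1.06 h after the medication. These hours differed by less than their errors. No rats were taken at these hours, so the peaks and their errors rest on the assumed 24 h cosine shape. The highest measured means were at 24 h in Nr1d1 (1.05) and at 0 h in Dbp (0.84) and Per3 (0.59). The cosine took up 86.7% of the variance between the time means in Nr1d1, 91.8% in Dbp and 86.7% in Per3. Each of the 3 genes passed with any single array left out, and also without the 0 h or the 8 h rats. The moderated F test over all 8 times, with no shape assumed, also passed for 3 of 9 genes (1.65% of all genes). Its limma adjusted p was 0.0015 for Nr1d1, 0.015 for Dbp and 0.038 for Per3. Without replicate 1 of S-EtOH 0 h only 1 of the 9 passed. Genes of other lists passed the same test, with peaks at differing hours. The cosine passed for 3 of 4 endothelial markers, 3 of 8 microglia and macrophage markers and 5 of 9 immediate early genes, and for 0 of the neuron, astrocyte, oligodendrocyte, neutrophil and erythrocyte markers. The endothelial marker Slco1c1 had an amplitude of 1.10 and a peak at 19.2 h (limma adjusted p = 6.1e-05), and the microglial marker P2ry12 one of 0.52 and a peak at 23.1 h (limma adjusted p = 4.7e-04). Itgam, of the same list as P2ry12, had 0.58 and a peak at 14.8 h (limma adjusted p = 0.0076). The 5 immediate early genes that passed had peaks from 3.98 h (Nr4a1) to 8.59 h (Fos). Their part in the courses of Nr1d1, Dbp and Per3 was not tested.

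The other members were flatter or noisier. Per1, a repressor that also answers acute signals, read -0.19 and -0.35 at 0 h, 0.54 and 0.01 at 2 h, and -0.43 and -0.61 at 12 h. Its fitted amplitude of 0.59 ± 0.22 was as large as that of Nr1d1, with a peak at 4.83 h, but the S-EtOH rats of 8 h lay apart at -0.64 and 0.40 and the cosine did not pass (limma adjusted p = 0.19). Per2 peaked at 2.71 h with an amplitude of 0.16 ± 0.09. The PAR bZIP factor Tef had a fitted peak at 23.6 h with an amplitude of 0.15 ± 0.05, near Dbp in fitted time and smaller (limma adjusted p = 0.11). Cry1, the repressor partner of the period proteins, peaked at 8.11 ± 2.00 h (amplitude 0.22 ± 0.12), and the activator Arntl at 7.26 ± 2.30 h (0.16 ± 0.12). Both fitted peaks lay away from that of Dbp, with amplitudes under 2 SE from 0. Clock itself was nearly flat, with all 16 S-EtOH values between -0.16 and 0.19. With quantile normalization between arrays, or with array weights, 7 of 9 clock genes passed the cosine in S-EtOH. These were the 3 named above with Per1, Per2, Tef and Cry1.

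In the sham rats given MP the spans separated less clearly. Dbp in S-MP read 0.70 and 0.35 at 2 h, -0.07 and -0.12 at 6 h, -0.07 and -0.20 at 12 h, 0.73 and 0.82 at 24 h, and 0.12 and 0.08 at 48 h. Nr1d1 was already low in the S-MP rats of 2 h, at 0.08 and 0.13, below both S-EtOH rats of that time (0.81 and 0.35). It then stood at 0.91 and 0.75 at 24 h, above every other S-MP value, and its 4 values of 24 and 48 h all lay above those of 4 to 12 h. Dbp and Per3 overlapped between these spans. Per3 reached 0.24 at 4 to 12 h, above its 0.06 and 0.23 of 48 h, and Dbp reached 0.12 against 0.12 and 0.08. The S-MP course has no 0 h point, and by the moderated F test 0 of 9 clock genes passed the cosine (1.42% of all genes), with 6 at an unadjusted p under 0.05. Dbp came nearest (amplitude 0.35 ± 0.09, peak 21.8 h, limma adjusted p = 0.059). Per1 had an amplitude of 0.85 ± 0.23, peaking at 5.20 h (limma adjusted p = 0.12). The difference of the cosine terms between S-MP and S-EtOH, over the 7 shared times, passed for 0 of 9 (0.161% of all genes), with 1 at an unadjusted p under 0.05 in limma.

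**Figure D2:**
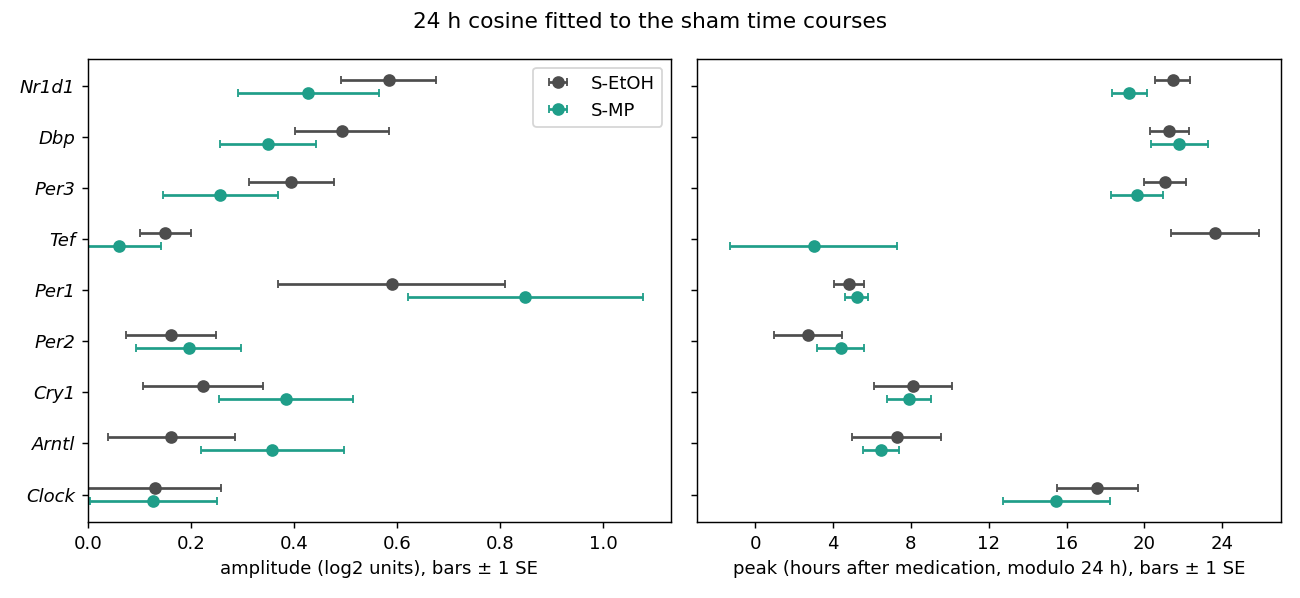
Amplitude (left, log2 units) and peak hour (right, hours after the medication within a 24 h period) of the cosine fitted to each clock gene in S-EtOH (8 times) and S-MP (7 times), with bars of 1 SE. The fitted peaks of Nr1d1, Dbp and Per3 lie together near 21 h in S-EtOH, where no rats were taken and the assumed cosine shape sets the hour. Those of Arntl and Cry1 lie near 7 to 8 h, with amplitudes close to their errors.

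Over the 30 sham arrays, times and medications pooled, the members rose and fell as follows. Per3 followed Dbp with a Pearson's r of 0.90, Nr1d1 followed Dbp with 0.81, and Per3 followed Nr1d1 with 0.73. Arntl ran against Dbp (r = -0.64) and Per3 (-0.64), and Cry1 against Dbp (-0.62). These correlations share the time course and the arrays and are given as a description. Within the pairs of duplicates, where time and group are the same, most values were smaller in size. Those pairs include the injured groups, so they and the sham arrays are unlike sets. Over the differences of 30 pairs from all 4 groups, r was 0.50 for Per3 and Dbp, 0.30 for Per3 and Nr1d1, and -0.04 for Nr1d1 and Dbp. It was -0.72 for Arntl and Dbp, -0.21 for Arntl and Per3, and -0.21 for Cry1 and Dbp. Outside the set, the genes most like Dbp over the 30 sham arrays were Gipc1 (r = 0.81), Dennd2b (0.79), Adap1 (0.78), Mtss1 (0.76) and Hip1r (0.75). The genes most unlike it were the metallothioneins Mt1 (-0.85) and Mt2A (-0.81), which bind metals, followed by Sat1 (-0.75), Slc4a7 (-0.74) and Tgm1 (-0.72). Mt1 and Mt2A are also on the list of glucocorticoid-induced genes described below. The genes most like Arntl were Tp53inp1, Rab31, Map3k2, Zfp189 and Mtmr10, with r from 0.76 to 0.78. Those most unlike it were Tmem150a, Prima1, Rgma, Tmem198b and Polm, with r from -0.76 to -0.71.

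After injury the clock genes split into a group that rose and a group that fell. Comparing SCI-EtOH with S-EtOH over the mean of 7 times from 2 to 48 h (the injury difference, A), Arntl, Cry1, Per1 and Per2 rose and Dbp, Tef, Per3 and Clock fell. By limma 8 of 9 clock genes passed, 4 higher and 4 lower, where 62.7% of all genes passed (35.1% higher and 27.5% lower), so the share called among the members is to be read against a high background. The count was also 8 of 9 with the 6 h rats left out. The median difference was -0.18 over the 9 members and 0.04 over all genes.

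Over the mean of 7 times the largest falls were those of the PAR bZIP output factors. Dbp at 24 h read -0.71 and -0.64 in SCI-EtOH and 0.71 and 0.74 in S-EtOH, a log2 difference of -1.40. At 48 h it read -0.81 and -1.24 against 0.43 and 0.68, a difference of -1.58. At 0 h the same gene had stood at 0.80 and 1.05 in the injured and 0.97 and 0.71 in the sham rats, and at 4 h at -0.03 and 0.18 against 0.04 and 0.12. The groups thus overlapped up to 6 h and were apart from 8 h on. Over 7 times Dbp fell by 0.64 on the log2 scale (SE 0.08, limma adjusted p = 4.7e-08). Tef was lower in both SCI-EtOH rats than in both S-EtOH rats at 6 of 7 times, the exception being 6 h (0.21 and -0.18 against 0.10 and 0.18). At 24 h it read -0.74 and -0.55 against 0.28 and 0.28. Its mean difference was -0.51 ± 0.05 (SE; limma adjusted p = 6.1e-10).

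Per3 behaved like Dbp late and not early. The SCI-EtOH rats read 0.62 and 0.87 at 0 h and 0.11 and 0.27 at 4 h, when both lay above the sham pair of -0.08 and -0.11. At 24 h they read -0.58 and -0.77 against 0.34 and 0.42, and at 48 h -0.42 and -0.03 against 0.47 and 0.61. The mean over 7 times was lower by -0.38 ± 0.07 (limma adjusted p = 3.2e-05). Nr1d1 passed the test by time at 24 h alone, with 0.27 and 0.19 in SCI-EtOH against 1.07 and 1.04 in S-EtOH. Over 7 times its difference of -0.18 ± 0.09 did not pass (limma adjusted p = 0.076), though it did with quantile normalization (-0.38), with the ethanol arms fitted alone, and in 5 of the 60 fits that left out an array.

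The return to the 0 h level that Dbp and Per3 showed in sham was not seen after injury, in contrasts chosen after the values were seen. Against 0 h, the mean of 24 and 48 h in SCI-EtOH was lower by -1.77 ± 0.19 in Dbp (limma adjusted p = 1.8e-09), by -1.19 ± 0.17 in Per3 (3.1e-07), by -0.79 ± 0.12 in Tef (2.2e-06) and by -0.54 ± 0.20 in Nr1d1 (0.025). Arntl was higher by 0.47 ± 0.19 (limma adjusted p = 0.048). In all 5 of 9 members passed, 1 higher and 4 lower, against 42.1% of all genes. This change exceeded the sham change, by limma's test of the difference, in Dbp (-1.57 ± 0.27, adjusted p = 3.4e-05), Per3 (-1.06 ± 0.24, adjusted p = 7.7e-04) and Tef (-0.77 ± 0.17, adjusted p = 9.5e-04), where 24.9% of all genes passed. In Nr1d1 the difference of -0.47 had a 95% interval from -1.04 to 0.10 and did not pass.

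Of the genes that rose, the activator Arntl was highest at 8 h, with 0.91 and 0.78 in SCI-EtOH against -0.49 and 0.21 in S-EtOH. At 12 h it read 0.84 and 0.31 against -0.12 and -0.28, and at 48 h 0.07 and 0.40 against -0.46 and -0.46. At 4 h both injured rats, at -0.02 and -0.16, lay below both sham rats. Over 7 times Arntl was higher by 0.53 ± 0.08 (limma adjusted p = 1.3e-06). Cry1 was above both sham rats in both SCI-EtOH rats at 6 of 7 times, all but 2 h, for instance with 0.65 and 0.38 against -0.19 and -0.09 at 12 h. Its mean difference was 0.51 ± 0.09 (limma adjusted p = 7.2e-06), but it was already 0.54 at 0 h (0.30 and 0.17 against -0.38 and -0.23; limma adjusted p = 0.34). Per1 at 12 h read 0.86 and 0.89 in SCI-EtOH against -0.43 and -0.61 in S-EtOH, a difference of 1.39 and the largest rise of any member at any time. At 48 h its SCI-EtOH rats were far apart, at -1.18 and 0.52. The mean difference over 7 times was 0.45 ± 0.13 (limma adjusted p = 0.0037). Per2 was apart at 12 h alone, with 0.41 and 0.33 against -0.30 and -0.36, and its mean of 0.15 ± 0.06 (limma adjusted p = 0.034) lost the call in 13 of the 60 fits without an array, with array medians set to 0 (0.13), with array weights and with the ethanol arms fitted alone (limma adjusted p = 0.067 in both).

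Clock went against its partner Arntl, with a mean difference of -0.25 ± 0.08 (limma adjusted p = 0.0065). The lowest rats were 1 of each SCI-EtOH pair at 6 h (-0.89 and 0.00) and 12 h (-0.10 and -1.01), while the S-EtOH values stayed between -0.16 and 0.19. The difference remained past the threshold without any single array, at -0.31 to -0.18, and both injured rats lay below both sham rats at 12 and 24 h. In the rats given MP the injury difference of Clock was 0.01 ± 0.08, on the other side of 0.

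Counted by time point, 20 of 63 gene-by-time tests of A passed the moderated F test and Tukey's range, 8 higher and 12 lower, against 20.9% of such tests over all genes. The plain analysis of variance with Tukey's test, the form the methods name, made 9 calls. Of the 20 calls of the moderated test, none was at 2 h (6.25% of all genes) and 1 at 4 h (Tef, -0.51, against 15.2%). At 6 h Arntl passed (0.60), against 13.4% of all genes. At 8 h Arntl (0.99), Dbp (-0.68) and Tef (-0.44) passed, against 20.7%. At 12 h 6 genes passed, namely Arntl (0.78), Per1 (1.39), Per2 (0.70), Cry1 (0.66), Clock (-0.66) and Tef (-0.43), against 27.5%. At 24 h these were Dbp (-1.40), Per3 (-1.05), Tef (-0.92) and Nr1d1 (-0.82), against 32.2%. At 48 h they were Dbp (-1.58), Per3 (-0.76), Tef (-0.76), Cry1 (0.70) and Arntl (0.69), against 31% of all genes. The 6 calls of 12 h held 4 rises, and the 4 calls of 24 h were all falls. In the 0 h rats, 0 of 9 genes passed (limma, 1 at an unadjusted p under 0.05), against 0.0419% of all genes.

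**Figure D3:**
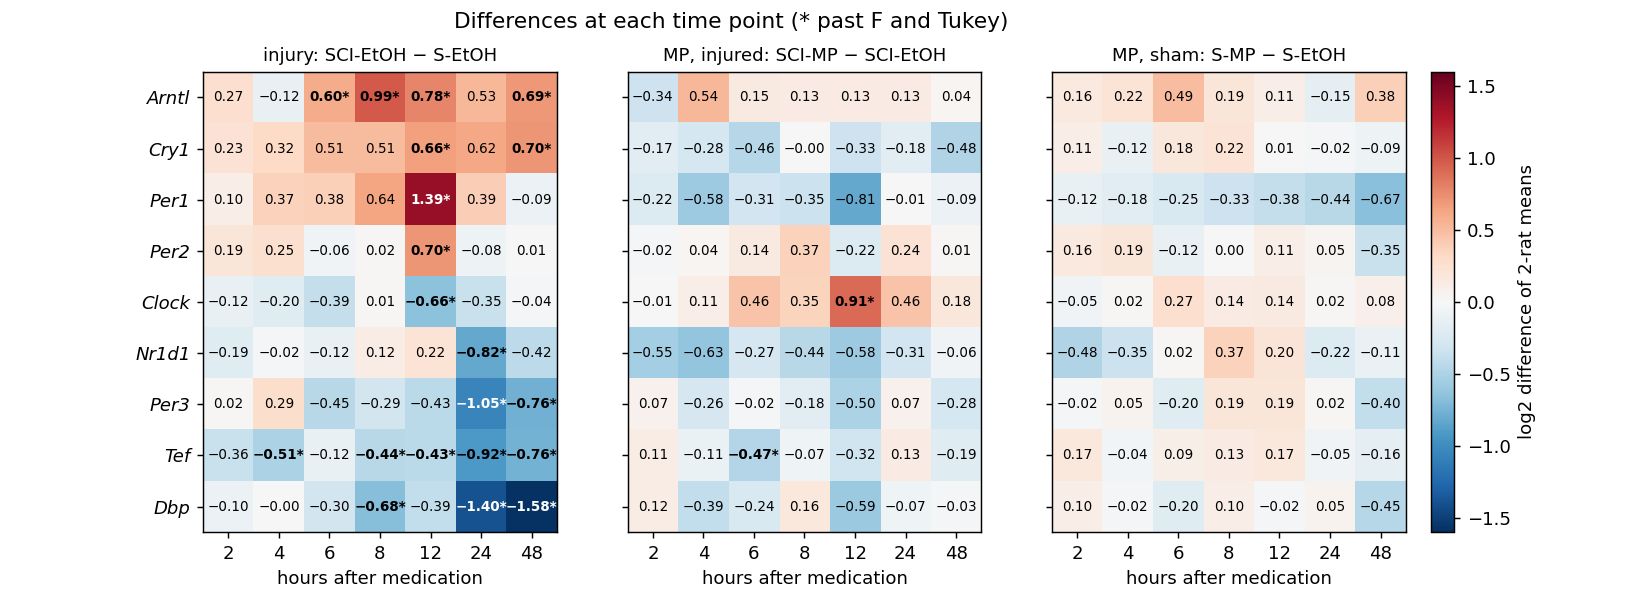
Log2 differences between means of 2 rats at each time for injury (SCI-EtOH minus S-EtOH), MP in injured rats (SCI-MP minus SCI-EtOH) and MP in sham rats (S-MP minus S-EtOH), with red higher and blue lower, and an asterisk where the F test and Tukey's range passed. The injury panel carries 20 asterisks, the MP panels 2 and 0.

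In SCI-EtOH the 24 h cosine took up less of the course of Dbp, Tef and Per3 than in S-EtOH. The moderated F test passed for 5 of 9 members in SCI-EtOH (49.1% of all genes) and 5 of 9 in SCI-MP (41.3% of all genes). In SCI-EtOH the cosine took up 12.2% of the variance between time means in Dbp, 10.9% in Tef and 27.3% in Per3, against 91.8%, 87.4% and 86.7% in S-EtOH. In the rats given MP the shares were 46.6%, 55.4% and 63.5% with injury and 58.7%, 22.8% and 59.3% in sham. The ethanol courses included the 0 h rats, and the MP courses had none. Shares and counts of the MP groups therefore cannot be set against those of the ethanol groups, and no effect of MP is read from them. The fitted amplitudes in SCI-EtOH were 0.37 ± 0.12 in Dbp, 0.21 ± 0.09 in Tef and 0.39 ± 0.09 in Per3. In S-EtOH they were 0.49, 0.15 and 0.40, so the amplitude was not smaller in Tef and was alike in Per3. The fitted peaks lay at 2.38, 4.18 and 1.61 h, against 21.3, 23.6 and 21.1 h in S-EtOH. The Tef cosine did not pass in either group. In SCI-EtOH the Dbp values of 0 h (0.80 and 1.05) were the highest of the course and those of 48 h (-0.81 and -1.24) among the lowest, although both hours have the same phase in a 24 h wave. The cosine terms differed between SCI-EtOH and S-EtOH over the 7 shared times for 4 of 9 members (23.4% of all genes), with limma adjusted p of 0.0016 for Dbp, 0.020 for Per3, 0.022 for Tef and 0.040 for Nr1d1. This count was 2 without S-EtOH 48 h replicate 2, SCI-EtOH 6 h replicate 2, SCI-EtOH 24 h replicate 1 or SCI-EtOH 48 h replicate 1, and 1 (Dbp) with array weights.

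The injury pattern held in part among the rats given MP, which share no array with the ethanol rats. For SCI-MP minus S-MP over 7 times, a comparison added after the values were seen, 7 of 9 members passed in limma, 3 higher and 4 lower, against 55% of all genes (21.7% higher and 33.3% lower). Dbp was lower by -0.72 ± 0.08, Tef by -0.68 ± 0.05, Per3 by -0.52 ± 0.07 and Nr1d1 by -0.50 ± 0.09. Arntl was higher by 0.44 ± 0.08, Per1 by 0.45 ± 0.13 and Per2 by 0.22 ± 0.06. Dbp in SCI-MP read -1.01 and -1.18 at 12 h against -0.07 and -0.20 in S-MP, and -0.94 and -0.54 at 24 h against 0.73 and 0.82. Per3 read -1.08 and -1.02 at 12 h against 0.24 and -0.11. Cry1 was higher by 0.19 ± 0.09 without passing (limma adjusted p = 0.060). Clock, lower under A, stood at 0.01 ± 0.08 here (limma adjusted p = 0.90), and Nr1d1 passed here but not under A.

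Cell type markers moved under A as well, where 35.1% of all genes were higher and 27.5% lower. Under A, 9 of 9 measured neuron markers were lower, with a median log2 difference of -1.49, and their mean level per rat ran from 0.14 to 0.51 in S-EtOH and from -2.30 to 0.21 in SCI-EtOH. Of the astrocyte markers 6 of 6 were lower (median -0.73), and of the oligodendrocyte markers 1 was higher and 5 lower of 7. Higher were 5 of 8 microglia and macrophage markers, 5 of 8 neutrophil markers, 3 of 4 endothelial markers and 4 of 4 erythrocyte markers (median 1.35). The erythrocyte median was already 1.45 at 0 h, with 0 of 4 passing in limma. The part of cell composition in the falls of Dbp, Tef and Per3 and in the rises of Arntl, Cry1 and Per1 was not tested.

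Acute signals moved with injury as well. Of 9 measured immediate early genes, which respond within minutes to stimuli, 9 were higher under A (median 1.65), against 35.1% of all genes. Their mean level per rat ran from -0.98 to 0.14 in S-EtOH and from -0.23 to 1.76 in SCI-EtOH. Of the 6 measured temperature-responsive genes, 2 were higher and 3 lower, against 35.1% and 27.5% of all genes. The part of either in the clock gene shifts was not tested.

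MP in the injured rats (B, SCI-MP minus SCI-EtOH over 7 times) raised Clock and lowered Nr1d1, Cry1, Per1 and Tef. Dbp, Per3 and Arntl, which injury had shifted, did not pass. In limma 5 of 9 members passed, 1 higher and 4 lower, near the background of 42.1% of all genes (10.4% higher and 31.7% lower). Of these, 2 remained, Clock and Nr1d1, with quantile normalization, array weights or the injured arms fitted alone, and 3 passed with array medians set to 0. The median difference was -0.15 over the members and -0.06 over all genes.

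Nr1d1 was lower in both SCI-MP rats than in both SCI-EtOH rats at 6 of 7 times. At 2 h it read 0.03 and -0.35 in SCI-MP against 0.42 and 0.37, at 8 h -0.44 and -0.56 against 0.05 and -0.18, and at 12 h -0.36 and -0.69 against 0.11 and -0.00. The exception was 48 h, where both pairs were wide (0.49 and -0.54 against -0.29 and 0.37). Its mean difference was -0.41 ± 0.09 (limma adjusted p = 3.1e-04), the same sign as its injury difference of -0.18, which did not pass. Clock was higher by 0.35 ± 0.08 (limma adjusted p = 5.3e-04), with 0.44 and 0.26 at 12 h in SCI-MP against -0.10 and -1.01. The same SCI-EtOH rats enter A and B, so the 2 differences of Clock are not independent.

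Per1 was lower at all 7 times by the means, at 12 h with 0.13 and -0.01 in SCI-MP against 0.86 and 0.89 (a difference of -0.81). Its mean of -0.34 ± 0.13 (limma adjusted p = 0.039) passed narrowly and lost the call in 14 of 60 fits without an array. Cry1 was also lower at all 7 times, by -0.27 ± 0.09 on average (limma adjusted p = 0.012), a call lost with quantile normalization (-0.19, adjusted p = 0.12), with array weights (adjusted p = 0.073) and with the injured arms fitted alone (adjusted p = 0.051). Tef was lower by -0.13 ± 0.05 (adjusted p = 0.049), a call lost in 46 of the 60 limma fits without an array. Dbp (-0.15, 95% interval -0.32 to 0.02), Per3 (-0.16, -0.30 to -0.01), Arntl (0.11, -0.06 to 0.28) and Per2 (0.08, -0.04 to 0.20) did not pass. No SCI-MP rats were taken at 0 h.

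By time point, 2 of 63 tests of B passed, Clock at 12 h (0.91) and Tef at 6 h (-0.47), against 9.51% over all genes. The Tef call used the SCI-EtOH pair of 6 h, the pair that agreed least over all genes. The count was 1 without SCI-EtOH 12 h replicate 2 or SCI-MP 6 h replicate 2 and rose to 4 to 6 when any of 11 other arrays was left out. The difference of the cosine terms between SCI-MP and SCI-EtOH passed for 0 of 9 (limma; 1 at an unadjusted p under 0.05), where 1.62% of all genes passed. Beside B, 1 of 8 neutrophil markers was higher (10.4% of all genes). Lower were 6 of 8 microglia and macrophage markers, 4 of 8 neutrophil markers and 5 of 9 immediate early genes (31.7% of all genes). Their part in the fall of Per1 and Cry1 was not tested.

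**Figure D4:**
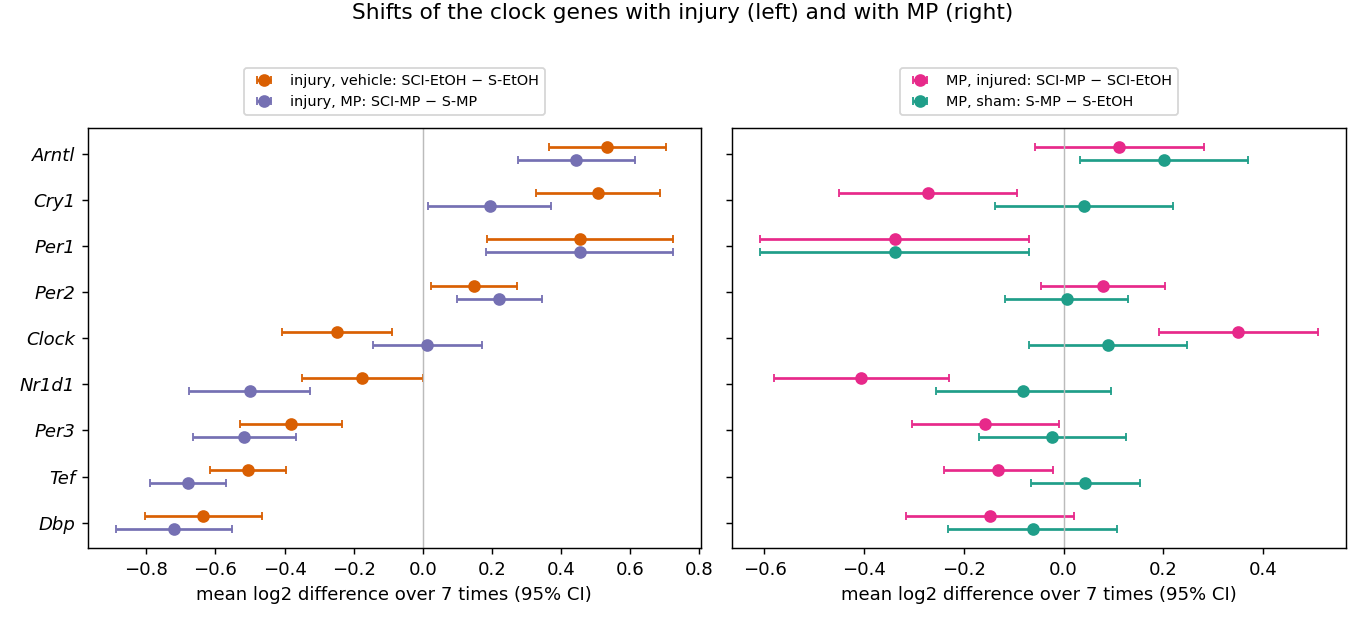
Mean log2 difference over 7 times with its 95% confidence interval for each clock gene: injury in the ethanol rats and in the MP rats (left), and MP in the injured and in the sham rats (right). Injury raised Arntl and lowered Dbp, Tef and Per3 in both medications, and the MP differences run from -0.41 (Nr1d1) to 0.35 (Clock), both in injured rats.

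In sham rats MP moved no clock gene past the threshold. For S-MP minus S-EtOH over 7 times (D), 0 of 9 passed in limma, with 2 at an unadjusted p under 0.05, against 9.85% of all genes. The nearest were Per1 and Arntl. Per1 was lower by -0.34 ± 0.13 (limma adjusted p = 0.10), as much as in the injured rats, and by the means at all 7 times. At 24 h it read -0.75 and -1.05 in S-MP against -0.60 and -0.31 in S-EtOH, and at 48 h -0.47 and -1.35 against -0.34 and -0.13. Arntl was higher by 0.20 ± 0.08 (limma adjusted p = 0.13), at 6 h with 0.15 and 0.14 against -0.46 and -0.23. Both passed with quantile normalization (Per1 -0.41, Arntl 0.32), with array weights and with the sham arms fitted alone. Each of the other 7 had a 95% interval within -0.26 and 0.25. By time point 0 of 63 tests passed, with 0 where Tukey's range was read without the F test, against 2.22% over all genes.

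The MP response itself was present in the sham cord. Fkbp5, a chaperone gene that marks glucocorticoid exposure, rose by 0.62 ± 0.12 in sham rats (limma adjusted p = 0.0010) and by 0.84 ± 0.12 in injured rats (1.6e-06), and differed by -0.05 ± 0.12 with injury. Of the 12 glucocorticoid-induced genes 4 were higher and 0 lower under D, where 9.85% of all genes passed in either direction. Under B 5 were higher and 2 lower, against 10.4% and 31.7% of all genes. In S-EtOH, which received no MP, 9 of these 12 genes passed the 24 h cosine (7.41% of all genes) and 6 of 12 the time course (1.65%). The fitted peaks of the 9 genes ran from 5.72 h (Zbtb16) to 9.82 h (Mt2A). The glucocorticoid-induced genes thus had a time course of their own in sham. Its part in the courses of Dbp, Nr1d1 and Per3 was not tested.

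Whether MP acted otherwise in injured than in sham cord was asked by the difference B minus D. It passed for Nr1d1 alone (-0.33 ± 0.12, limma adjusted p = 0.047), against 25.7% of all genes. Cry1 (-0.31, limma adjusted p = 0.060) and Clock (0.26, limma adjusted p = 0.077) were next, and in Per1 the difference was -0.00, with a 95% interval from -0.38 to 0.38.

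The wider clock network, 28 other genes of which 18 were measured, was followed by counts. In S-EtOH 2 of the 18 passed the cosine, against 7.41% of all genes. Usp2, a deubiquitinating enzyme that acts on clock proteins, had an amplitude of 0.57 and a peak at 4.06 h (limma adjusted p = 3.1e-04). Nfil3, a bZIP repressor that competes with Dbp and Tef for D-boxes, had 0.50 and a peak at 8.29 h (limma adjusted p = 0.0020), when Dbp was low. With injury Nfil3 rose by 1.33 ± 0.09 (limma adjusted p = 3.0e-15), and Usp2 differed by -0.22 ± 0.06 (limma adjusted p = 0.0014). Any part of Nfil3 in the falls of Dbp and Tef was not tested. Under A 6 of the 18 were higher and 9 lower (35.1% and 27.5% of all genes), under B 2 higher and 5 lower (10.4% and 31.7%), and under D 1 higher and 0 lower (9.85% in either direction). The gene under D was Csnk1d, a kinase of the period proteins (0.14 ± 0.04, limma adjusted p = 0.016).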

How the data were processed

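The authors hybridised RNA of each rat to an Affymetrix array, summarised it by RMA, normalised it per chip and per gene, and deposited log2 values for 27342 probe sets and 60 arrays. What each gene was centred on was not given in the sources used here, and array medians ran from -0.03 to 0.11. The deposited log2 values hold no brightness over background, so probe sets could not be filtered by it, and the number of arrays limits the precision. Groups came from the sample labels, whose duplicates are separate rats. Of the probe sets 15097 had 1 gene symbol (15067 updated through the gene ID), 323 had several and 11922 none, and those of a gene were averaged to 14324 genes.

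limma 3.58.1 in R 4.3.3 fitted 1 mean for each of 30 groups over all arrays (30 residual degrees of freedom), with moderated variances and Benjamini-Hochberg adjustment over all genes at 0.05. The sets at single times used the moderated F test over 4 groups and then Tukey's range. The methods name an analysis of variance with Tukey's test, and this plain form was an alternative. Intervals are 95%. The cosine had a period of 24 h, and its amplitude SE came from the delta method.

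The members and lists were chosen with earlier results of these data known. All members are described. Other clock genes were named if past the cosine in S-EtOH, and those like Dbp or Arntl were the 5 highest and 5 lowest by r. Csnk1d was named after its values were seen, as were the comparisons of 24 and 48 h with 0 h. Promoters were read with Python 3.11.15.

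On values simulated for 14324 genes, A over 7 times found 83 of 100 genes shifted by 0.3 and 99 of 100 shifted by 0.6. It also made 57 calls among the genes not given this shift. Those can include genes simulated with a cosine in S-EtOH, whose mean over the 7 times differs between the arms as well. The 57 are therefore no count of false calls. The S-EtOH cosine found 64 and 98 (8 false calls). The simulated noise was independent and had 1 spread per gene in all groups. In the data the spread differed, with array weights from 0.15 (SCI-EtOH 6 h) to 2.70 (S-EtOH 0 h), so these counts need not hold there. Alternatives were quantile normalization, array medians set to 0, array weights, the duplicate number as a block, the lowest probe set ID, a noise filter, robust variances, arms or times fitted alone, and leaving out time points or each array.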

Additional observations from a re-analysis of the deposited data

Results flagged for a closer look

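Nr1d1 was picked out because its response to MP differed between injured and sham cord. The difference B minus D over 7 times was -0.33 ± 0.12 (limma adjusted p = 0.047), from -0.41 in injured and -0.08 in sham rats. The interaction was the test, and its call was lost in 39 of the 60 fits that left out an array, with quantile normalization (-0.15), with array medians set to 0 (-0.31), with array weights (adjusted p = 0.065 in limma) and with 6 h left out (-0.33, limma adjusted p = 0.070).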

How the results depend on the processing

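Counts are of the 9 clock genes, or of 63 gene-by-time tests. With quantile normalization the time course in S-EtOH passed for 6, the 24 h cosine in S-EtOH for 7, in S-MP for 5 and in SCI-EtOH for 2, the cosine difference for D for 1, and 12 h against 0, 24 and 48 h for 5. B and D over 7 times then passed for 2 each and B minus D for 0, with 1 call at single times in B and 5 in D. With array weights these were 6 (time course), 7, 4 and 1 (cosines in S-EtOH, S-MP and SCI-EtOH), 1 (cosine difference for A), 5 (12 h), 2 (B), 2 (D), 1 (injury at 0 h), and 1 and 4 (single times in B and D). With the compared arms alone they were 7, 2 and 3 (the same cosines), 1 (cosine difference for D), 5 (12 h), 2 (B) and 2 (D). Array medians set to 0, or 6 h left out, gave 3 for B and 0 for B minus D, and adding the 0 h difference of the ethanol groups gave 0 for B. That difference compares injured with sham rats and is no baseline for B, and adding it widens the errors by construction, so this value says nothing about the stability of B. The plain analysis of the methods made 9 calls at single times in A, and times fitted alone 6 in B and 1 in D. Per1 in B minus D turned to 0.17 (quantile), 0.018 (medians) and 0.0089 (6 h left out), Dbp in B minus D to 0.019 (quantile), Cry1 in B to 0.27 (0 h added) and Clock in A to 0.013 (rats given MP). The turn of Cry1 is the sum of its B value and its 0 h difference, and for the others the cause was not tested.

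Leaving out each array in turn, the counts ran from 1 to 3 for the time course, 3 to 4, 0 to 2, 4 to 7 and 4 to 6 for the cosine in sham (S-EtOH, then S-MP) and injured rats (ethanol, then MP), and 2 to 6, 0 to 1 and 0 to 0 for its difference for A, B and D. They ran from 0 to 3 for 12 h, 7 to 9 for A, 3 to 6 for B, 0 to 1 for D, 0 to 2 for B minus D and 0 to 0 for injury at 0 h, and from 16 to 22, 1 to 6 and 0 to 0 at single times in A, B and D. B gave 3 without SCI-EtOH replicate 2 of 2, 4, 12, 24 or 48 h, SCI-MP replicate 1 of 2, 4 or 24 h, or SCI-MP replicate 2 of 6, 8 or 48 h. The signs of 4 values near 0 changed: Clock in the 12 h contrast (-0.024 to 0.13), Per2 in D (-0.012 to 0.024), Per3 in D (-0.047 to 0.0025) and Per1 in B minus D (-0.12 to 0.12). Whether the labels' duplicate numbers pair rats across groups is not stated. The correlation of deviations had a median of 0.011 over 435 pairs of groups, with 109 over 0.1 and a range from -0.57 to 0.54. Such a median cannot exclude a structure shared by some of the groups. The duplicate number as a replicate block left 8 of 9 for A, 5 for B and 3 for the S-EtOH cosine. Under the settings other than leaving out an array, 109 counts stayed within 1.5 times and 37 moved further.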
